A study of Homo sapiens with 2 samples.

Results

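The mitochondrial protein import genes are the genes for the translocases, chaperones and peptidases that bring proteins made in the cytosol into mitochondria. They were taken by name from the deposited table: rows of type mRNA whose symbol begins with TOMM or TIMM, or is PAM16, DNAJC15, DNAJC19, GRPEL1, GRPEL2, PMPCA, PMPCB, MIPEP, MTX1, MTX2, MTX3, SAMM50, CHCHD4 or GFER. There were 39 such genes among 19784 mRNA rows and 40205 rows in all. RKO, an established cell line from a human colorectal carcinoma, was transfected with an siRNA against hnRNPU (sihnRNPU) or with a control siRNA (siNC), and total RNA was sequenced. hnRNPU, also called scaffold attachment factor A, is a nuclear protein that binds RNA and DNA. Details not given in the sources used here include the siRNA sequences and the time of harvest. With 1 library of each kind, the differences have no replicate check and no test between conditions was possible. The members follow from their names, but the set as a whole was selected on the log2 ratios between these same libraries, so its differences are a description and support nothing by themselves.

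Nearly all mitochondrial proteins are encoded in the nucleus and enter through the TOM complex of the outer membrane. From there, barrel-shaped outer membrane proteins go to the SAM complex, small cysteine-rich proteins to the disulfide relay of the intermembrane space, carrier proteins to TIM22, and proteins with a cleavable presequence to TIM23. The motor on the matrix side pulls the chain in with the chaperone HSPA9, and peptidases remove the presequence.

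The knockdown was visible in the target. HNRNPU had 75.4 FPKM under hnRNPU siRNA against 239 FPKM under control siRNA, so 31.5% remained. FPKM is fragments per kilobase of gene, scaled to library depth. Steps between low values gave 39807025 reads behind the hnRNPU siRNA library and 31801650 behind the control library. The epithelial markers EPCAM (13.7 and 13.8 FPKM) and KRT18 (81.6 and 88.1 FPKM) had close levels in the hnRNPU siRNA and control libraries. KRT8 was at 3.40 FPKM with hnRNPU siRNA and 4.15 FPKM with control siRNA, and CDH1 was listed at 0 in both. The blood and immune markers PTPRC, CD3E and HBB were at 0 in both libraries, and fibroblast markers summed to 0.0131 FPKM in the hnRNPU siRNA library and 0 in the control library. The 4 muscle and neural markers summed to 0.0168 FPKM in the hnRNPU siRNA library and 0.211 FPKM in the control library. In bulk RNA, fewer cells of a type and less RNA per cell cannot be told apart.

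Import genes were on the whole slightly higher in the hnRNPU siRNA library. Of the 39 genes, 37 had a mean of at least 1 FPKM and were measured, and only DNAJC15 and TOMM20L were below it. Log2 ratios here compare FPKM + 1, hnRNPU siRNA over control, so a value above 0 means higher with hnRNPU siRNA. The added 1 understates the difference of low genes. The ratio was above 0 in 29 of the 37 genes and below 0 in 8, against a background of 50.4% of 10184 measured mRNAs and 50% of all measured genes above 0. Their median log2 ratio was 0.23, beside 0.00 over all measured mRNAs. At a log2 ratio of at least 0.5, a 1.41-fold difference, there were 7 import genes, where the background was 4.62% of measured mRNAs (5.4% of all 11567 measured genes). None lay at -0.5 or less, where the background was 5.76% of measured mRNAs and 6.41% of all measured genes. TIMM17A lay just inside this limit at 0.50 and TIMMDC1 just outside at 0.47. The count of 7 was 3 when the libraries were scaled by their median ratio and 2 with a pseudocount of 5 FPKM, since 6 of the 7 lay close to the limit. At a log2 ratio of at least 1 there was a single import gene, TOMM22, where the background was 0.187% of measured mRNAs and 0.354% of all measured genes. None lay at -1 or less, where the background was 0.491% of measured mRNAs and 0.657% of all measured genes.

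**Figure D1:**
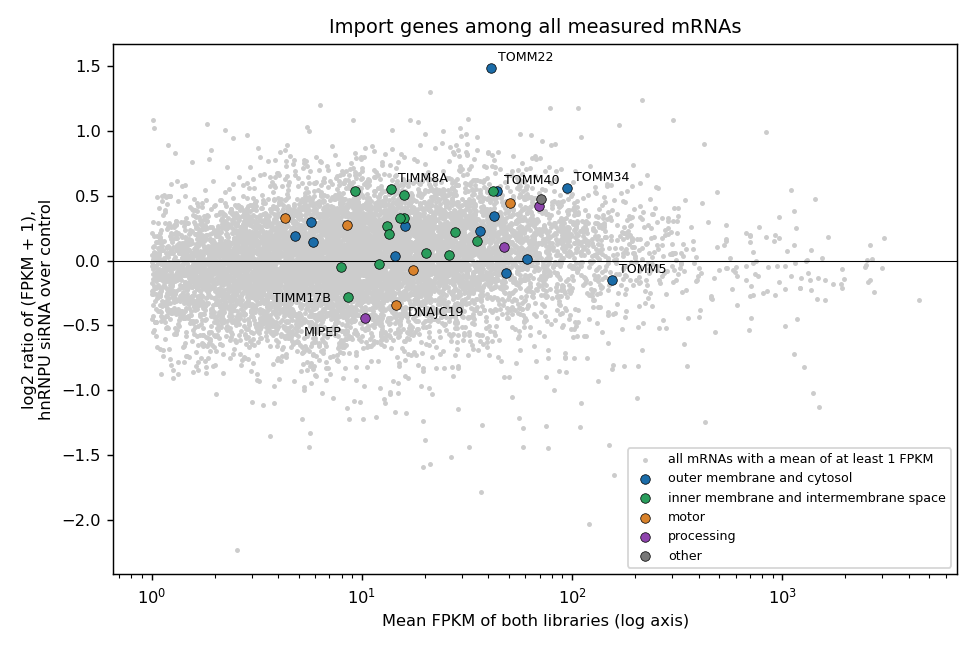
Mean FPKM of both libraries (log axis) against the log2 ratio of (FPKM + 1), hnRNPU siRNA over control, for all 10184 measured mRNAs (grey) and the 37 measured import genes (coloured by group). TOMM22 stands alone at 1.48, most import genes lie between 0 and 0.56, and MIPEP is lowest at -0.45.

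Each of the 4 groups had a higher sum in the hnRNPU siRNA library, where the background ratio of sums over all measured mRNAs was 0.998. Summed FPKM was 617 in the hnRNPU siRNA library and 521 in the control library for the 13 measured outer membrane and cytosolic genes, a ratio of 1.18. For the 15 genes of the inner membrane and intermembrane space the sums were 301 FPKM in the hnRNPU siRNA library and 251 FPKM in the control library, a ratio of 1.20. The 5 measured motor genes summed to 102 FPKM with hnRNPU siRNA and 88.3 FPKM with control siRNA, a ratio of 1.16. The 3 processing genes summed to 138 FPKM with hnRNPU siRNA and 117 FPKM with control siRNA, a ratio of 1.18. Sums follow their most abundant genes, so a higher sum is not a rise across a group. GRPEL1 alone gave 58.3 and 42.5 FPKM of the motor sums in the hnRNPU siRNA and control libraries. PMPCA alone gave 80.2 and 59.6 FPKM of the processing sums in the same order. Without TOMM22 the outer membrane ratio was 1.11, with 556 FPKM in the hnRNPU siRNA library and 500.1 FPKM in the control library. These sums still held the cytosolic TOMM34, at 112 FPKM with hnRNPU siRNA and 76.2 FPKM with control siRNA. Median log2 ratios were 0.23 in the outer membrane group, 0.22 in the inner membrane group, 0.27 in the motor group and 0.11 in the processing group. Each group held both higher and lower genes, and the motor median rests on 5 genes: it was 0.10 over the 4 with a mean of at least 5 FPKM and -0.07 over the 3 with at least 10 FPKM.

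**Figure D2:**
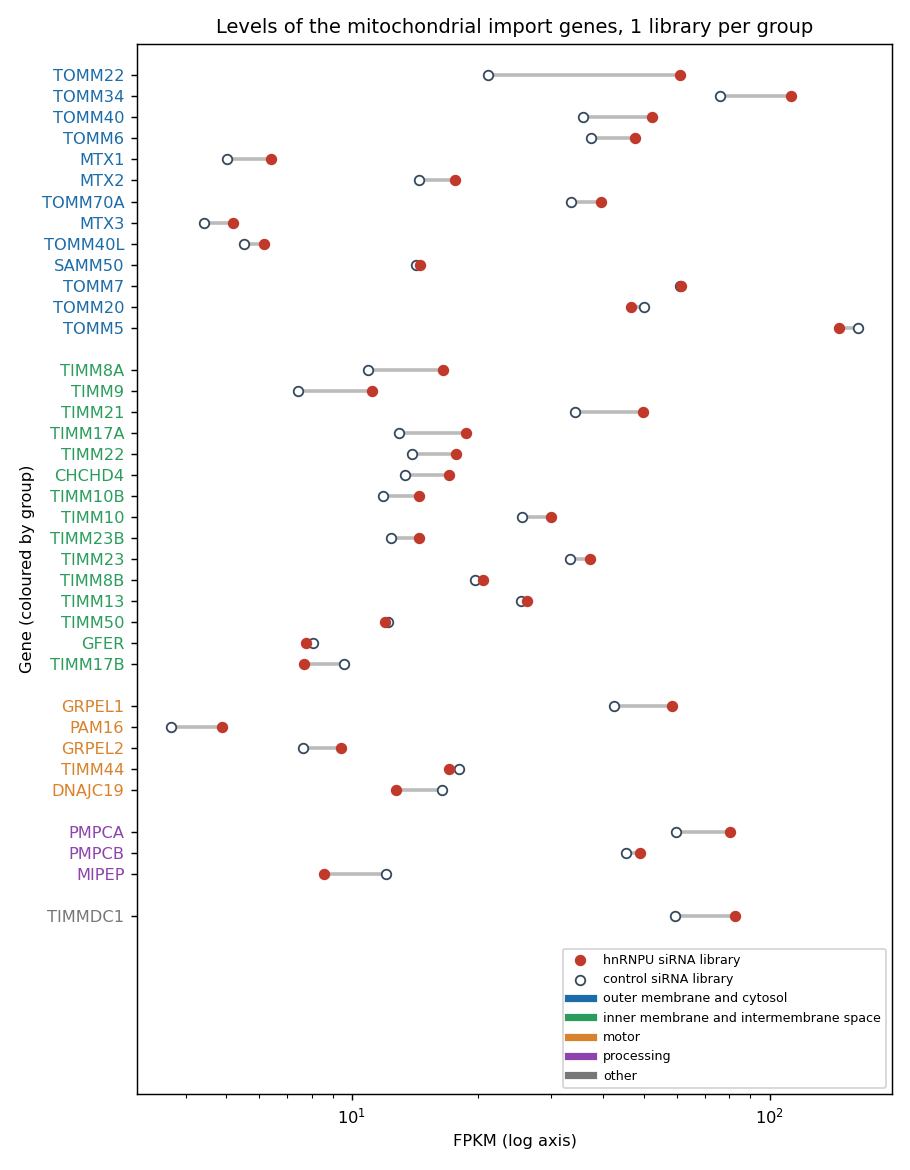
FPKM (log axis) of the 37 measured import genes in the hnRNPU siRNA library (filled red) and the control library (open), with names coloured by group. Levels ran from 3.69 FPKM for PAM16 to 163 FPKM for TOMM5 in the control library, and the longest line belongs to TOMM22.

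TOMM22 encodes the central receptor of the TOM complex, which passes precursors from the peripheral receptors to the channel. It stood at 60.9 FPKM in the hnRNPU siRNA library and 21.1 FPKM in the control library. This was an FPKM ratio of 2.88 with an exact 95% counting interval of 2.60 to 3.20, and a log2 ratio of 1.48, rank 1 among the 10184 measured mRNAs. Counting intervals were computed from recovered reads with the Clopper-Pearson method. Counting error is all they cover, and the spread between cultures is unknown. Recovered reads can be too few by a whole factor, and an interval is then too wide, so one that holds 1 does not show equal levels. They can also be too many where a read was shared out between genes, and an interval is then too narrow. Genes called level had close FPKM values in both libraries, which does not show equality. The gene lies on chromosome 22, positions 39077954 to 39080765 of GRCh37, plus strand. None of its 6 listed pseudogenes reached 0.01 FPKM, so copies with their own rows held almost no signal. JOSD1, a deubiquitinase gene ending downstream of TOMM22 on the other strand, stood at 17.5 FPKM in the hnRNPU siRNA library and 12.9 FPKM in the control library, a log2 ratio of 0.41. It was named after its value was seen. Whether reads were counted by strand was not stated in the labels.

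The promoter of TOMM22, the gene with the largest difference, is shown from RefSeq on GRCh38.p14 (chr22:38681707-38682006, plus strand), 250 bases before to 50 after the gene's start. Capitals mark matches, on either strand, to any of 8 motifs searched: the NRF1 core (GCGCA, any base, GCGC), the ETS core CCGGAAG, the SP1 core GGGCGG, the E-box CACGTG, the CCAAT box, the YY1 core AAGATGG, the ATF4 element TGATGNAA and the TATA box TATAAA. A single match was present, to the ETS core on the minus strand, just after the start.
TOMM22: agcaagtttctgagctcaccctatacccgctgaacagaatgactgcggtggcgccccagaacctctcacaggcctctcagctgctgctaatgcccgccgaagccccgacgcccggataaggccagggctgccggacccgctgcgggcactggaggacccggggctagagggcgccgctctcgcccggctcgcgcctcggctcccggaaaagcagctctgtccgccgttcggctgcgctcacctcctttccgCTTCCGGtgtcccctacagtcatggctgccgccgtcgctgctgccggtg

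Promoters were listed under the symbol or its current form for 36 of the 39 import genes. The ETS core, bound by factors such as GABPA that are known for mitochondrial genes, occurred in 17 of the 36. It occurred in 10.7% of 27305 promoters, 1 per gene symbol, and in 21.9% of the 7849 that matched a measured mRNA. Among the 7 genes at a log2 ratio of at least 0.5, it occurred in 2. So 47.2% of import promoters held it, more than in either background. TIMM23 and its near copy TIMM23B, with 2 matches each, both count among the 17. The NRF1 core, of a regulator of respiratory chain genes, occurred in 7 of the 36 (19.4%), against 6.28% of all promoters and 13.3% of those of measured mRNAs. SP1 cores occurred in 22 (61.1%), against 44.6% of all promoters and 72.7% of those of measured mRNAs, so they lay between the backgrounds. E-boxes occurred in 5 (13.9%), against 7.43% of all promoters and 10.9% of those of measured mRNAs. CCAAT boxes occurred in 12 (33.3%), against 35.7% of all promoters and 37.4% of those of measured mRNAs. The YY1 core occurred in 5 (13.9%), against 6.06% of all promoters and 8.38% of those of measured mRNAs. The ATF4 element, of the stress-response factor, occurred in 2 (5.56%), against 3.67% of all promoters and 1.503% of those of measured mRNAs. The TATA box occurred in 1 (2.78%), against 12.0% of all promoters and 4.68% of those of measured mRNAs. Matches of the ETS and SP1 cores overlapped in 1 gene, as did those of the SP1 core and CCAAT box. A match describes letters only and is not a site of binding.

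Within the TOM complex the subunits differed in size and direction. TOMM40, the channel, stood at 52.2 FPKM in the hnRNPU siRNA library and 35.8 FPKM in the control library, an FPKM ratio of 1.46 (counting interval 1.38 to 1.54). TOMM70A, the receptor for carrier proteins handed over by cytosolic chaperones, stood at 39.4 and 33.4 FPKM in the hnRNPU siRNA and control libraries, a ratio of 1.18 (1.14 to 1.22). The presequence receptor TOMM20 lay on the other side, at 46.7 FPKM in the hnRNPU siRNA library and 49.9 FPKM in the control library, a log2 ratio of -0.10. So of the 3 receptors TOMM22 was far higher, TOMM70A slightly higher and TOMM20 slightly lower in the hnRNPU siRNA library. TOMM20 is given without a counting interval because its reads may be shared out between genes, so its direction is less certain. The small subunits, which stabilise the channel, also split: TOMM6 stood at 47.6 FPKM in the hnRNPU siRNA library and 37.4 FPKM in the control library. TOMM7 was level, at 61.3 FPKM in the hnRNPU siRNA library and 60.9 FPKM in the control library, with a counting interval of the ratio of 0.94 to 1.08. TOMM5, the most abundant import mRNA, stood at 147 FPKM in the hnRNPU siRNA library and 163 FPKM in the control library, a ratio of 0.902 (0.867 to 0.938). Its share of the summed FPKM of the 7 main TOM subunits was 32.3% in the hnRNPU siRNA library and 40.6% in the control library. TOMM22 took 13.4% of that sum in the hnRNPU siRNA library and 5.26% in the control library. The ratio of TOMM22 to TOMM40 FPKM was 1.17 in the hnRNPU siRNA library and 0.591 in the control library, and the 1.97-fold difference between these had an exact counting interval of 1.76 to 2.22.

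Paralogues of the TOM subunits were low. TOMM40L, the paralogue of the channel, stood at 6.17 FPKM in the hnRNPU siRNA library and 5.50 FPKM in the control library, with a counting interval of the ratio of 0.91 to 1.38. TOMM20L was listed at 0.165 FPKM in the hnRNPU siRNA library and 0.309 FPKM in the control library, on 2 and 3 recovered reads, too few to read a difference from. TOMM34, whose product is a cytosolic co-chaperone of HSP70 and HSP90 rather than a TOM subunit, stood at 112 FPKM in the hnRNPU siRNA library and 76.2 FPKM in the control library. Its FPKM ratio was 1.48 (1.43 to 1.53), and its log2 ratio was 0.56. By FPKM ratio TIMM8A and TIMM9, at 1.51 each, lay above it.

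The SAM complex inserts barrel proteins into the outer membrane. Its core subunit gene SAMM50 was level, at 14.6 FPKM in the hnRNPU siRNA library and 14.2 FPKM in the control library. Its metaxin partners were somewhat higher: MTX2 stood at 17.6 FPKM in the hnRNPU siRNA library and 14.5 FPKM in the control library, a ratio of 1.22 (1.11 to 1.34). MTX3 stood at 5.19 FPKM in the hnRNPU siRNA library and 4.42 FPKM in the control library, a ratio of 1.17 (1.09 to 1.27). MTX1 stood at 6.38 FPKM in the hnRNPU siRNA library and 5.01 FPKM in the control library. The counting interval of the SAMM50 ratio, 0.958 to 1.09, held equality, and a difference between SAMM50 and the metaxins was not tested.

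In the intermembrane space, the hexameric TIM chaperones carry hydrophobic precursors across. TIMM8A, the gene of deafness-dystonia syndrome, stood at 16.5 FPKM in the hnRNPU siRNA library and 10.9 FPKM in the control library, a ratio of 1.51 (1.35 to 1.68). Its paralogue TIMM8B was level at 20.6 and 19.7 FPKM in the hnRNPU siRNA and control libraries. TIMM13, which pairs with TIMM8A in the chaperone complex, stood at 26.2 FPKM in the hnRNPU siRNA library and 25.5 FPKM in the control library. The ratio of TIMM8A to TIMM13 FPKM was therefore 0.628 in the hnRNPU siRNA library and 0.429 in the control library, a 1.46-fold difference (1.29 to 1.66). In the other hexamer, TIMM9 stood at 11.2 FPKM in the hnRNPU siRNA library and 7.41 FPKM in the control library, a ratio of 1.51 (1.21 to 1.89). Its partner TIMM10 stood at 29.9 FPKM in the hnRNPU siRNA library and 25.5 FPKM in the control library. Their balance, 0.374 in the hnRNPU siRNA library and 0.291 in the control library, differed 1.29-fold, with a counting interval of 0.98 to 1.69. The recovered lengths of both genes were below their exon lengths, so this interval may be too wide and no call is made from it. All 5 genes of these chaperones had log2 ratios above 0, but for TIMM8B and TIMM13 the counting interval held equality.

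The disulfide relay oxidises small cysteine-rich proteins as they arrive. CHCHD4, its import receptor and oxidoreductase, stood at 17.1 FPKM in the hnRNPU siRNA library and 13.4 FPKM in the control library. GFER, the sulfhydryl oxidase that recharges it, was level, at 7.78 FPKM in the hnRNPU siRNA library and 8.08 FPKM in the control library (counting interval of the ratio 0.864 to 1.07). The TIM22 insertase places carriers in the inner membrane, and both of its listed subunits were higher in the hnRNPU siRNA library. TIMM22 stood at 17.8 and 13.95 FPKM in the hnRNPU siRNA and control libraries, a ratio of 1.27 (1.03 to 1.57). TIMM10B stood at 14.5 and 11.9 FPKM in the hnRNPU siRNA and control libraries, a ratio of 1.22 (1.13 to 1.32). C19orf52, the older symbol of TIMM29 and so missed by the name rule, stood at 3.88 FPKM in the hnRNPU siRNA library and 3.40 FPKM in the control library.

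The TIM23 complex takes presequence proteins through the inner membrane. Its paired subunits TIMM17A and TIMM17B, alternative partners of the TIMM23 channel, lay on opposite sides of equality. TIMM17A stood at 18.7 FPKM in the hnRNPU siRNA library and 12.9 FPKM in the control library, a ratio of 1.45 (1.32 to 1.59). TIMM17B stood at 7.69 FPKM in the hnRNPU siRNA library and 9.54 FPKM in the control library, a ratio of 0.806 (0.693 to 0.936). The ratio of TIMM17A to TIMM17B FPKM was 2.44 in the hnRNPU siRNA library and 1.35 in the control library, a 1.80-fold difference with a counting interval of 1.505 to 2.15. The listed span of TIMM17B overlaps that of PQBP1 on the other strand by 232 bases, and PQBP1 was the more abundant at 33.1 FPKM in the hnRNPU siRNA library and 27.8 FPKM in the control library. PQBP1 was named after its values were seen, and whether its reads enter the TIMM17B value was not tested. TIMM17B was listed on a scaffold rather than on a chromosome, as were TIMM8A, MTX1 and TIMM23. Whether this affected their values was not tested.

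The promoters of this pair, which differed in direction, come from RefSeq on GRCh38.p14 (TIMM17A chr1:201955253-201955552, plus strand; TIMM17B chrX:48897719-48898018, minus strand). Capitals mark the same 8 motifs. TIMM17A held 5 CCAAT boxes, 2 SP1 cores and 1 YY1 core, and TIMM17B held 3 CCAAT boxes and none of the other 7 motifs.
TIMM17A: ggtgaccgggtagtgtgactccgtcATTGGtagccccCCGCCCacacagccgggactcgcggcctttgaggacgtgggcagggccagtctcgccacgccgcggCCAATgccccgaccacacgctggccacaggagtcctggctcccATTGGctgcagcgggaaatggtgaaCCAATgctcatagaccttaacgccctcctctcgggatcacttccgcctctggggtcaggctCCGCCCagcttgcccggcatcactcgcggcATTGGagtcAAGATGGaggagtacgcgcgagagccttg
TIMM17B: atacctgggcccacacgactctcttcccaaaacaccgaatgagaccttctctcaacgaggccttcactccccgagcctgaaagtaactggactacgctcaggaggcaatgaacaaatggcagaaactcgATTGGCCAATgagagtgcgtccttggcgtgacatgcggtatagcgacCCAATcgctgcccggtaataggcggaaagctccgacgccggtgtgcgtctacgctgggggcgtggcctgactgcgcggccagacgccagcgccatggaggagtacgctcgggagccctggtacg

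TIMM21, which links TIM23 to the TOM complex and to respiratory chain assembly, stood at 49.8 FPKM in the hnRNPU siRNA library and 34.2 FPKM in the control library, a ratio of 1.46 (1.34 to 1.59). TIMM50, the presequence receptor of TIM23, stood at 12.0 FPKM in the hnRNPU siRNA library and 12.2 FPKM in the control library (counting interval of the ratio 0.827 to 1.16). TIMM23, the channel, stood at 37.1 FPKM in the hnRNPU siRNA library and 33.3 FPKM in the control library. Its near copy TIMM23B was listed at 14.5 FPKM in the hnRNPU siRNA library and 12.4 FPKM in the control library. Reads of these copies are hard to tell apart. For both, the length at which the FPKM gave whole reads was far above their exon length, as can happen when a read is shared out between genes. That length was also well above the exon length in MTX1, TOMM6, TOMM20, CHCHD4 and PAM16. These 7 genes are given without counting intervals, and their values are less certain. The sign of the log2 ratio changed under at least 1 rescaling of the libraries for TIMM50, TOMM7 and SAMM50.

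Among the motor genes the nucleotide exchange factors and a J protein lay on opposite sides of equality. GRPEL1, the main exchange factor of HSPA9, stood at 58.3 FPKM in the hnRNPU siRNA library and 42.5 FPKM in the control library, a ratio of 1.37 (1.30 to 1.45). GRPEL2, its paralogue, stood at 9.42 FPKM in the hnRNPU siRNA library and 7.63 FPKM in the control library, a ratio of 1.23 (1.14 to 1.33). DNAJC19, a J protein that stimulates HSPA9, stood at 12.8 FPKM in the hnRNPU siRNA library and 16.4 FPKM in the control library, a ratio of 0.777 (0.702 to 0.861). GRPEL1 was thus 4.57 times the level of DNAJC19 in the hnRNPU siRNA library and 2.59 times in the control library, a 1.77-fold difference (1.57 to 1.98). PAM16, the partner that restrains the J protein, stood at 4.89 FPKM in the hnRNPU siRNA library and 3.69 FPKM in the control library. Its span lies inside that of the readthrough gene CORO7-PAM16, which was level at 1.44 and 1.46 FPKM in the hnRNPU siRNA and control libraries. TIMM44, the scaffold of the motor, stood at 17.1 FPKM in the hnRNPU siRNA library and 18.05 FPKM in the control library (counting interval of the ratio 0.847 to 1.06). DNAJC15, the other J protein, was listed at 0 in both libraries. For a gene of 1000 bases, 3 reads would be 0.0754 FPKM in the hnRNPU siRNA library and 0.0943 FPKM in the control library.

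**Figure D3:**
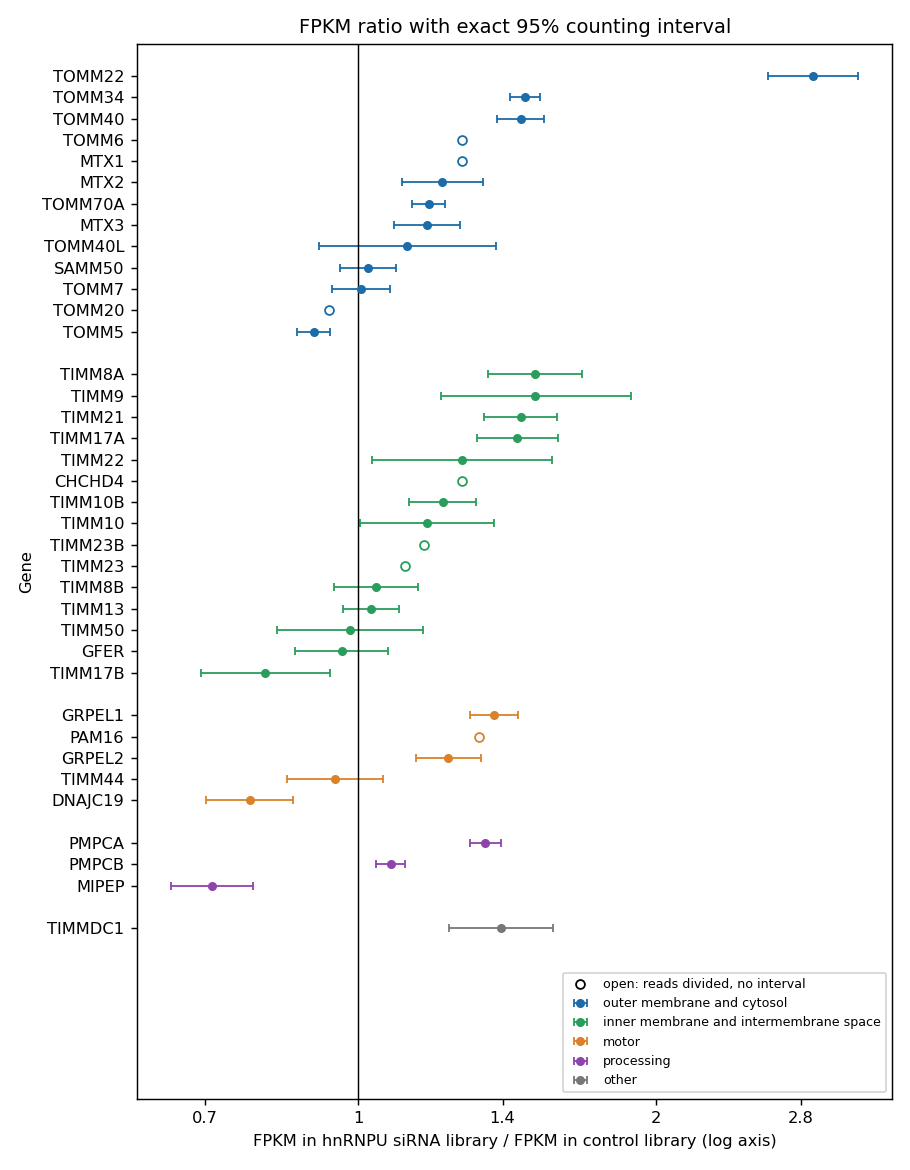
Ratio of FPKM, hnRNPU siRNA over control (log axis), for the 37 measured import genes by group, with exact 95% counting intervals; open points are the 7 genes with divided reads. TOMM22 (2.88) stands far right of the rest, and MIPEP, DNAJC19, TIMM17B and TOMM5 have intervals wholly left of 1.

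Processing peptidases remove the presequence in the matrix. PMPCA, the substrate-recognising subunit, stood at 80.2 FPKM in the hnRNPU siRNA library and 59.6 FPKM in the control library, a ratio of 1.34 (1.30 to 1.39). PMPCB, the catalytic subunit, was nearly level, at 49.0 FPKM in the hnRNPU siRNA library and 45.4 FPKM in the control library, a ratio of 1.08 (1.04 to 1.12). Its span overlaps DNAJC2 on the other strand by 17384 bases, and DNAJC2, at 190 FPKM in the hnRNPU siRNA library and 164 FPKM in the control library, was the more abundant. MIPEP, the peptidase that trims an octapeptide after the first cut, had the lowest ratio of the 37 measured import genes. It stood at 8.58 FPKM in the hnRNPU siRNA library and 12.1 FPKM in the control library, so it was at 71.2% of its control (counting interval of the ratio 0.648 to 0.783). The gene lies on chromosome 13, positions 24304328 to 24462896 of GRCh37, minus strand. TIMMDC1, a complex I assembly factor with a TIMM name, stood at 82.9 FPKM in the hnRNPU siRNA library and 59.4 FPKM in the control library.

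The promoter of MIPEP, shown as the lowest gene beside TOMM22 as the highest, comes from RefSeq on GRCh38.p14 (chr13:23889351-23889650, minus strand), with the same motifs in capitals. It held 3 SP1 cores, 1 ETS core and 1 E-box, and the E-box stood directly against an SP1 core.
MIPEP: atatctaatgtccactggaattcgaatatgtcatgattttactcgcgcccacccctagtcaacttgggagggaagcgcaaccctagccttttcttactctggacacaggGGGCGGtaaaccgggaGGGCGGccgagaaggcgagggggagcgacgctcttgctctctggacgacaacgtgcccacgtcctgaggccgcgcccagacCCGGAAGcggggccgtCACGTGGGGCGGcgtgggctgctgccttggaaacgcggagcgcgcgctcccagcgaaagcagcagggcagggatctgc

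**Figure D4:**
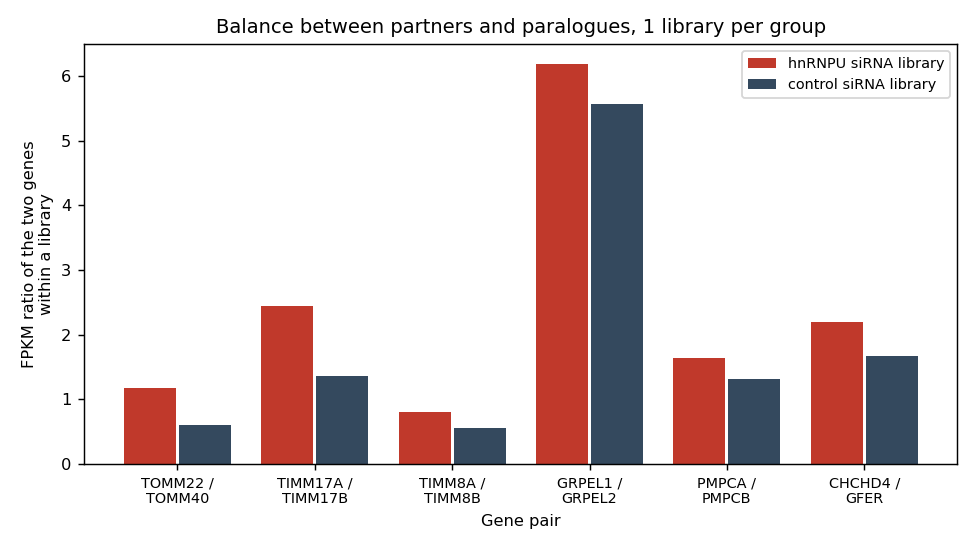
FPKM of the first gene over FPKM of the second within each library, for 6 pairs of partners or paralogues; the hnRNPU siRNA bar stands left of the control bar. The pairs and their order were picked with the values known, which fixes the direction shown; the difference ran from 1.11-fold for GRPEL1 over GRPEL2 to 1.97-fold for TOMM22 over TOMM40.

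Of 15 pairs computed, the ratio of the first gene to the second was higher in the hnRNPU siRNA library in 14 and lower in 1. The lower one was TIMM23 over TIMM23B (2.56 in the hnRNPU siRNA library and 2.68 in the control library), and the largest difference was 3.08-fold for TOMM22 over TOMM20. Since the order within pairs was chosen with the values known, this count says nothing of direction.

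Of the 30 measured genes with undivided reads, the counting interval of the FPKM ratio lay wholly above 1 in 18, wholly below 1 in 4 and held 1 in 8. The background over 8341 such mRNAs was 34.1% above and 32.4% below, and over 8705 such genes of any type 33.2% above and 31.7% below. Intervals away from 1 were thus common in these libraries. Among those that held 1, TOMM40L, TIMM50, TIMM44 and TOMM7 had recovered lengths well below their exon lengths, so their intervals may be too wide. The 4 below were MIPEP, DNAJC19, TIMM17B and TOMM5.

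Neighbours that share a start region lay on the same side as the import gene in some cases and on the other in others. In 8 import genes another listed gene starts within 1000 bases on the other strand, leading away, with no overlap at the starts. Pairs that overlap at their starts were left out of this count. In these, TOMM70A (0.23) and LNP1 (0.29) start 205 bases apart, and TIMM17B (-0.28) and PQBP1 (0.24) start 231 bases apart. MIPEP stood at -0.45 while C1QTNF9B-AS1, 132 bases away, stood at 0.37, with 0.547 FPKM in the hnRNPU siRNA library and 0.196 FPKM in the control library. That was an FPKM ratio of 2.796 (1.36 to 6.33), on 35 and 10 reads. TIMM9 was higher (log2 ratio 0.54) while KIAA0586, 181 bases away, was lower at -0.22, with 3.50 FPKM in the hnRNPU siRNA library and 4.25 FPKM in the control library. PMPCA stood at 0.42 while SDCCAG3, 62 bases away, was level at 53.5 and 53.4 FPKM in the hnRNPU siRNA and control libraries. CHCHD4 stood at 0.33 while TMEM43, 69 bases away, stood at -0.12. FBXO15, 646 bases from TIMM21 (0.53), stood at 0.0575 FPKM in the hnRNPU siRNA library and 0.126 FPKM in the control library, on 4 and 7 reads. TIMM23 and LOC728407, 53 bases apart, stood at 0.15 and 0.08. TIMM10B and ARFIP2, whose starts are 1 base apart, stood at 0.26 and 0.17. TIMM8B and the succinate dehydrogenase subunit gene SDHD, 26 bases apart, were both level (0.06 and 0.09). Inside the span of TOMM20 lies the small nucleolar RNA gene SNORA14B. It stood at 12.8 FPKM in the hnRNPU siRNA library and 4.43 FPKM in the control library, on 69 and 19 reads, a ratio of 2.90 (1.73 to 5.11), beside a TOMM20 log2 ratio of -0.10. These neighbours, DNAJC2 and CORO7-PAM16 were named after their values were seen.

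Other genes of mitochondrial protein handling were also described. Of 43 listed genes outside the import set, which includes matrix chaperones, inner membrane proteases, cytosolic chaperones that deliver precursors, and abundant carriers, all were measured. Log2 ratios were above 0 in 35 and below 0 in 8, where the background was 50.4% of measured mRNAs above 0, and the median was 0.22. At 0.5 or more there were 6, against a background of 4.62%, and none lay at -0.5 or less, against 5.76%. The list was made by hand with earlier results known. Genes with divided reads were not marked in this list. Its values, those of HSPA8 and HSPD1 included, may therefore be less certain. HSPA8, the cytosolic chaperone that delivers precursors to TOMM70A, was highest at 1109 FPKM in the hnRNPU siRNA library and 558 FPKM in the control library (0.99). The matrix chaperonin HSPD1 (0.90), the prohibitin PHB (0.61) and the cytosolic chaperones DNAJA1 (0.57) and HSP90AA1 (0.54) followed. The lowest were the carrier SLC25A4 (-0.32), the TIM23-associated ROMO1 (-0.20), the insertase OXA1L (-0.17), the presequence-degrading PITRM1 (-0.15) and the protease LONP1 (-0.14). SLC25A4, the heart-type ATP/ADP carrier, stood at 8.62 FPKM in the hnRNPU siRNA library and 11.0 FPKM in the control library. HSPA9, the motor chaperone, stood at 592 FPKM in the hnRNPU siRNA library and 490 FPKM in the control library (log2 ratio 0.27), and was named after its value was seen. Across the 37 import genes, the ratio and the level had a Spearman correlation of 0.19, close to the 0.18 over all measured mRNAs, so higher levels went with slightly higher ratios in both. The points share the same pair of libraries.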

How the data were processed

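The authors deposited 1 FPKM value per gene and library, in a single table for 1 hnRNPU siRNA library and 1 control library. Groups came from the treatment labels. RNA was extracted with Trizol, per the labels' protocols, and the aligner Bowtie and the build GRCh37 were used per the submitters' processing notes. Not given in the sources used here: annotation, counter and use of strand. No column of other samples was used.

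From these values, log2 ratios of (FPKM + 1), hnRNPU siRNA over control, were computed without further scaling, with genes counted as measured from a mean of 1 FPKM. Depth came from the commonest value of FPKM multiplied by span in noncoding genes under 400 bases. Within 1e-06 of a whole number, 36.0% and 35.3% of these genes then held whole reads in the hnRNPU siRNA and control libraries. Reads were recovered as the smallest length, up to 30000 bases, at which both libraries held whole reads (within 1e-05), in 16439 of 17552 genes above 0 in both. Where reads and length share a whole factor it drops out, which widens some intervals. Where the length exceeded 1.25 times the exons of GENCODE 29, reads were taken as divided. Divided reads below this limit would go unseen, and their intervals would be too narrow. MTX3 (7928 bases against 7919 of exons) and GRPEL2 (4636 against 4419) lay slightly above their exon length and kept their intervals. GENCODE gave lengths only, since it uses another genome build. Python 3.11.15, numpy 2.4.6, pandas 2.3.3 and scipy 1.17.1 were used. Depth, the ratio of recovered reads and the interval formula were tested on simulated libraries. These held whole reads only, so the call of divided reads was not tested. Interval coverage there was computed from the true reads and not from recovered reads, so it does not speak for the intervals given here.

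Members and lists were chosen with earlier results of these data known. All import genes are named, with HNRNPU and the 5 highest and 5 lowest of the other list; 2 of its 46 names had no row and 1 is an import gene. Alternatives were pseudocounts of 0.1, 0.5 and 5 FPKM, 3 rescalings and other minimum levels. One marker gene is not reported here.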

Additional observations from a re-analysis of the deposited data

How the results depend on the processing

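No paired analysis was possible because only 1 library per arm was analysed. The median log2 ratio of the import genes, 0.23, ranged from 0.19 to 0.26 over all alternatives run. The count of import genes at a log2 ratio of at least 0.5, 7, was 2 at a pseudocount of 5 FPKM, which shrinks ratios, and 3 after scaling by the median ratio, which lowers every log2 ratio by about 0.04. The count at -0.5 or less stayed 0. The motor median, 0.27, was 0.14 with no minimum level, 0.10 at a minimum of 5 FPKM, -0.073 at 10 FPKM and 0.10 without divided genes, over at most 6 genes. Leaving out the divided genes, TOMM22, or TOMM34 and TIMMDC1 was chosen after seeing the data, and the median was then 0.23, 0.23 and 0.22. For the 30 genes with undivided reads, 179 of 180 values under the pseudocounts and rescalings stayed within their counting interval, and TOMM22 at a pseudocount of 5 FPKM did not (1.33). The rescalings moved log2 ratios by about 0.04 at most and some intervals are too wide. This count was therefore likely beforehand and says little about dependence on processing. Among all 37 genes the sign changed in 4 of 222 values, for SAMM50, TIMM50 and TOMM7. Depth limits the precision of genes with few reads, such as TOMM20L.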
